A study of Mus musculus with 24 samples.

Results

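Olfactory epithelium of mice kept with acetophenone and decanal together was compared with epithelium of mice kept without odor, across all genes. The comparison used 6 of the 24 libraries of the study, 3 per group, picked by the column names of the count table that holds these odorants and is called AD in the labels. All 6 mice were wild-type C57BL/6J males aged 8 weeks. Each mouse stayed alone in an odor-free chamber for 4 h, and then spent 90 min with a filter paper that carried 10 µL of the 1:1 mixture of the undiluted odorants, or with an empty paper in the control group. The tissue was taken directly afterwards and perfused with a buffer that held cycloheximide and phosphatase inhibitors. RNA came from the supernatant of a detergent-treated homogenate and was made into stranded mRNA libraries. The labels call the replicates biological and mention no pooling. The same table holds 3 libraries after acetophenone alone and 3 after decanal alone, prepared in the same way.

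Acetophenone is an aromatic ketone and decanal a straight-chain aldehyde. Odorants bind olfactory receptors on the cilia of olfactory sensory neurons, each of which expresses a single receptor gene, and the bound receptor acts through the G protein subunit Gnal and the adenylyl cyclase Adcy3 to open the cyclic nucleotide-gated channel around Cnga2 and then the chloride channel Ano2. Electrical activity in neurons induces immediate early genes such as Fos, Egr1 and Nr4a1 within the time of such an exposure. The epithelium also holds sustentacular cells rich in xenobiotic enzymes and basal stem cells, and it lies on glands, nerve bundles, blood vessels and thin turbinate bone.

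The 6 libraries held between 20604861 and 24802512 counts each. Levels are given as CPM, counts scaled by library size and TMM factor, and each fold change is on the log2 scale, mixture over control. A gene was called where the adjusted p of edgeR's quasi-likelihood F-test, over 19525 genes, was under 0.05. The defining marker of mature sensory neurons, Omp, stood at 9115, 9760 and 9805 CPM in the control and 8875, 9781 and 10946 CPM in the mixture libraries, and Cyp2f2, an enzyme of sustentacular cells, at 3374 ± 147 CPM (SD, n = 3) in the control group. Markers of neighbouring tissue were also detected. Th and Gad1, genes of olfactory bulb interneurons, ran from 0.130 to 9.06 CPM and from 0.261 to 14.8 CPM over the 6 libraries, with the groups overlapping. Because the tissue was sequenced whole, fewer cells of a type and less RNA per cell cannot be told apart.

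The mixture group differed from the control group in 4347 of the 19525 genes, 22.3% of those tested. Of these, 2078 genes were higher in the mixture (10.6%) and 2269 were lower (11.6%). Every count of calls within a gene list below is to be read beside these shares. The 3 libraries of each group did not overlap for 3626 genes higher in the mixture (18.6%) and 3522 lower (18%). A gene said below not to overlap is to be read beside those shares. Rises were the larger: 265 called genes were over 2-fold higher, and 18 were over 2-fold lower. The call held without each of the 6 libraries in turn for 2436 genes (12.5%), of which 1104 were higher and 1332 lower. On the first principal component of the 12 libraries, which took 29.0% of the variance, the control and acetophenone libraries lay between -32.1 and -13.7, and the mixture and decanal libraries between 17.6 and 24.4. The 3 control and the 3 mixture libraries therefore did not overlap on it.

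Genes with short transcripts lay higher in the mixture. The median transcript length was 1768 bases for the genes called higher, 4016 bases for those called lower and 3018 bases for genes not called. In the decile of genes with the shortest transcripts, 123 to 1175 bases, the median log2 fold change was 0.31, 32.6% were called higher and 0.21% lower. In the eighth decile by length, 4173 to 4925 bases, the median was -0.12, 4.51% were called higher and 23.2% lower. When transcript length and GC content were fitted as an offset in each library, 1567 genes were called higher (8.03%) and 1677 lower (8.59%), 16.6% in all. Values from that fit are called length-adjusted. Whether the length dependence arose in the animals or in the handling of the RNA was not tested.

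**Figure D1:**
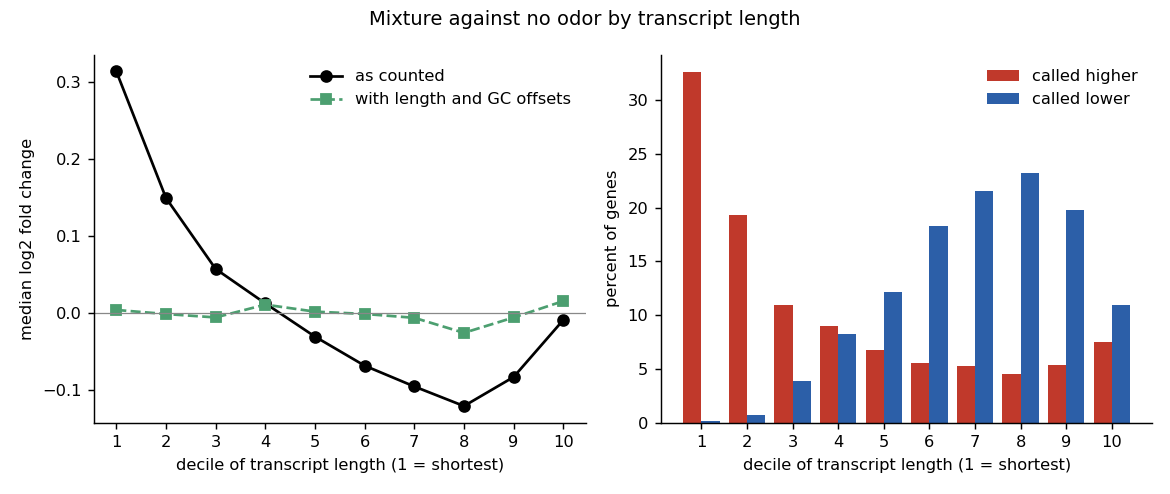
Left, median log2 fold change, mixture over no odor, by decile of transcript length, as counted (black) and with length and GC offsets (green). Right, percent of the genes of each decile called higher (red) or lower (blue). The shortest decile has a median of 0.31 and 32.6% of its genes called higher. With offsets every decile median lies between -0.026 and 0.015, which follows from the offsets being fitted to length and is no separate result.

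**Figure D2:**
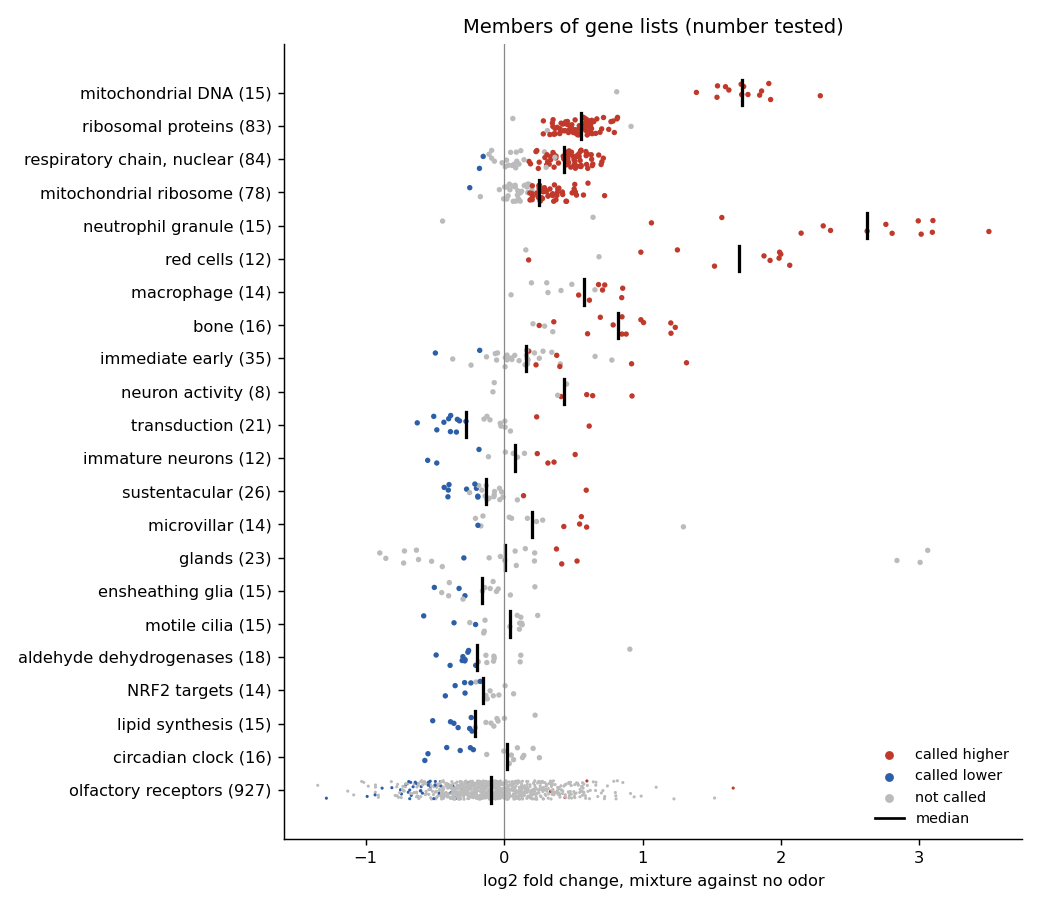
Log2 fold change of each tested member (points) of 22 gene lists, mixture over no odor, with the number tested in brackets, members called by edgeR in red or blue, others grey, and the median as a black bar. Mitochondrial, ribosomal, neutrophil, red cell and bone lists lie to the right of 0, and transduction genes mostly to the left.

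Among immediate early genes, the nuclear receptor gene Nr4a1 rose in every mixture mouse, while Fos and Egr1 did not pass the test. Of 35 tested genes of the immediate early list, 6 rose and 2 fell, with a median of 0.16 beside 0.01 over all genes tested, of which 10.6% rose and 11.6% fell. The length-adjusted fit called 7 of the 35 higher and none lower. Nr4a1 (ENSMUSG00000023034), an orphan nuclear receptor induced by calcium and cAMP signals, measured 24.5, 24.2 and 27.0 CPM in the control libraries and 54.6, 49.9 and 38.8 CPM in the mixture libraries. Every mixture library lay above every control library (log2 fold change 0.92, SE 0.17, adjusted p = 0.00142), and the call held without each of the 6 libraries. The length-adjusted value was 0.95 with an adjusted p of 0.00154. Fosb, a partner of Jun in AP-1, was low throughout, at 0.197, 0.3005 and 0.250 CPM in the control and 0.652, 0.530 and 0.694 CPM in the mixture libraries, and rose without overlap (log2 fold change 1.32, SE 0.39, adjusted p = 0.0248), but was called in only 2 of the 6 fits that leave out 1 library.

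The antiproliferative gene Btg2 (log2 fold change 0.38 with an adjusted p of 0.00943), the transcription factor gene Klf2 (0.40 with an adjusted p of 0.00644) and Ier5 (0.23 with an adjusted p of 0.0315) also rose. Arc, whose product acts at synapses, measured 8.98, 10.6 and 10.0 CPM in the control libraries and 7.30, 8.05 and 5.64 CPM in the mixture libraries and fell (log2 fold change -0.50, SE 0.16, adjusted p = 0.0382), as did Jun by a smaller margin (log2 fold change -0.18, SE 0.05, adjusted p = 0.0283). Both of these falls lost the call in the length-adjusted fit, where Arc stood at -0.42 (adjusted p = 0.0806) and Jun at -0.09 (adjusted p = 0.256). Fos measured 7.52, 11.5 and 13.1 CPM in the control libraries and 11.5, 22.7 and 8.42 CPM in the mixture libraries, and the groups overlapped (log2 fold change 0.41, SE 0.28, adjusted p = 0.342). A single mixture library, replicate 2, stood above all the others for Fos, and without it the log2 fold change was -0.12. Egr1, with 20.1, 29.0 and 28.6 CPM in the control and 28.2, 38.7 and 20.7 CPM in the mixture libraries, overlapped too (log2 fold change 0.17, SE 0.18, adjusted p = 0.559), as did the low-level Npas4 (adjusted p = 0.574).

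cAMP and calcium act on many immediate early genes through the factor CREB, whose core site is TGACG. In RefSeq promoter windows of the earlier build GRCm38.p6, the 250 bases before each annotated start, TGACG on either strand was found in 21 of the 34 windows (61.8%) of the 27 immediate early genes with an entry, belonging to 18 of these genes, in 23.3% of windows of the genes tested here and in 17.8% of all 32851 windows. It was in 27.7% of the windows of genes called higher and 25.9% of those called lower. By list, it was in 37.5% of windows for ribosomal protein genes, 34.7% for mitochondrial ribosomal protein genes and 31.5% for nuclear respiratory chain genes. The shares were 20.8% for transduction genes, 16.7% for bone genes and 12.5% for neuron activity genes, and none of 14 neutrophil granule windows had it. The windows of the 2 immediate early genes with the largest rises are shown, in the direction of the gene, with core-site letters in capitals (CGTCA is the same site on the opposite strand). The Nr4a1 window lies at chr15:101266596-101266845 on the plus strand, and that of Fosb at chr7:19310046-19310295 on the minus strand.
Nr4a1: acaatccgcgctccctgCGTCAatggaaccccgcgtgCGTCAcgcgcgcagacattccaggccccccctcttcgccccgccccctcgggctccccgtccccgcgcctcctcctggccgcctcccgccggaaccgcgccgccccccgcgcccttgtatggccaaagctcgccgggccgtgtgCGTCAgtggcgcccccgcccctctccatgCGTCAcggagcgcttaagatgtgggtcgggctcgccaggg
Fosb: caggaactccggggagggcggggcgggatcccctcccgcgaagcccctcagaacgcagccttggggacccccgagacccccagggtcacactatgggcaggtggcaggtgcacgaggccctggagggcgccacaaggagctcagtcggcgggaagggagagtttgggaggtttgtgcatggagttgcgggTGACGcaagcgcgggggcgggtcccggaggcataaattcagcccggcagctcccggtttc
The Nr4a1 window has 4 matches, whose first printed bases lie at positions -233, -213, -69 and -40 from the start site, and the Fosb window has 1, at position -60. The full palindrome TGACGTCA, which contains the core site on both strands, was in 3 of the 34 immediate early windows and in 1.55% of all windows. These matches describe letters and were not tested for function.

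Of 8 genes on a list of genes tied to the activity of sensory neurons, 4 rose and none fell, with a median of 0.43. Over all genes 10.6% rose and 11.6% fell. The list, like the others, was chosen with earlier results of these data known. Lrrc3b, which encodes a leucine-rich repeat membrane protein, measured 86.3, 77.2 and 82.3 CPM in the control libraries and 137, 124 and 122 CPM in the mixture libraries, without overlap (log2 fold change 0.64, SE 0.10, adjusted p = 0.00032). The protocadherin gene Pcdh10, an adhesion molecule, measured 9.61, 6.31 and 5.42 CPM in the control libraries and 15.3, 12.6 and 12.7 CPM in the mixture libraries and rose (log2 fold change 0.92, SE 0.20, adjusted p = 0.00326). Both calls held without each of the 6 libraries and in the length-adjusted fit. The potassium channel subunit gene Kcng1 rose by less certain margins, with 23.6, 24.9 and 22.5 CPM in the control and 39.4, 40.3 and 27.7 CPM in the mixture libraries (log2 fold change 0.60, SE 0.19, adjusted p = 0.0357), and was called in 1 of the 6 leave-one-out fits.

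S100a5, a calcium-binding protein gene of mature sensory neurons, measured 681, 599 and 618 CPM in the control libraries and 838, 743 and 943 CPM in the mixture libraries and rose as counted (log2 fold change 0.41, SE 0.09, adjusted p = 0.00399). Its transcript is short, and the length-adjusted value was -0.09 (adjusted p = 0.423), so the direction turned with that adjustment. Kirrel2, an adhesion molecule that sorts axons by activity, measured 313, 302 and 332 CPM in the control libraries and 432, 517 and 347 CPM in the mixture libraries. All mixture libraries were higher, but their spread was wide and the gene was not called as counted (log2 fold change 0.45, SE 0.19, adjusted p = 0.1), while the length-adjusted fit called it higher (0.57, adjusted p = 0.0482). The guidance gene Sema7a (adjusted p = 0.136) and Pcp4l1 (adjusted p = 0.59) were not called either, with log2 fold changes of 0.39 and -0.07. The last member, Il33, encodes an alarmin cytokine held in the nuclei of epithelial cells and is not a neuronal gene. It measured 494, 509 and 484 CPM in the control libraries and 443, 475 and 487 CPM in the mixture libraries and overlapped between the groups (log2 fold change -0.08, adjusted p = 0.305).

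Most called genes of the transduction cascade moved the opposite way. Of 21 tested genes of transduction and olfactory cilia, 11 fell and 2 rose, with a median of -0.28; the length-adjusted fit called 9 lower and none higher, with a median of -0.21. The calcium-dependent phosphodiesterase gene Pde1c, which clears cAMP, measured 500.2, 496 and 511 CPM in the control libraries and 287, 359 and 329 CPM in the mixture libraries (log2 fold change -0.63, SE 0.07, adjusted p = 3.44e-05). Adcy3 measured 1074, 1087 and 1163 CPM in the control libraries and 679, 869 and 789 CPM in the mixture libraries (log2 fold change -0.51, SE 0.08, adjusted p = 0.000216), and Gnal 1956, 1844 and 2010 CPM in the control libraries and 1295, 1581 and 1564 CPM in the mixture libraries (log2 fold change -0.39, SE 0.07, adjusted p = 0.00131). The mixture libraries lay below the control libraries for all 3 of these genes, and for Ano2, at 345 ± 34.2 and 246 ± 37.1 CPM (SD, n = 3; log2 fold change -0.49, SE 0.10, adjusted p = 0.00254). Mixture replicate 1 was the lowest library for each of them. The list's summed share of counts overlapped, at 2.39%, 2.43% and 2.51% in the control and 2.01%, 2.33% and 2.44% in the mixture libraries (two-sided exact permutation p = 0.3).

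Ric8b, a chaperone of Gnal, fell by a log2 value of 0.43 (adjusted p = 0.00131), and Rtp1, which carries receptors to the cell surface, by 0.34 (adjusted p = 0.0023). Cnga2 was lower in each mixture library than in any control library, at 829, 849 and 899 CPM against 585, 782 and 762 CPM (log2 fold change -0.28, SE 0.08, adjusted p = 0.0296). It was called in 3 of the 6 leave-one-out fits and not in the length-adjusted fit, where its value was -0.23 (adjusted p = 0.0732). Omp, in contrast to the cascade, overlapped between the groups (log2 fold change 0.05, SE 0.06, adjusted p = 0.617). The 2 members that rose were the G protein subunit gene Gng13 (log2 fold change 0.61 with an adjusted p of 0.000196) and the centrin gene Cetn2 (0.24 with an adjusted p of 0.00591), and neither was called in the length-adjusted fit, at adjusted p values of 0.0533 and 0.409.

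**Figure D3:**
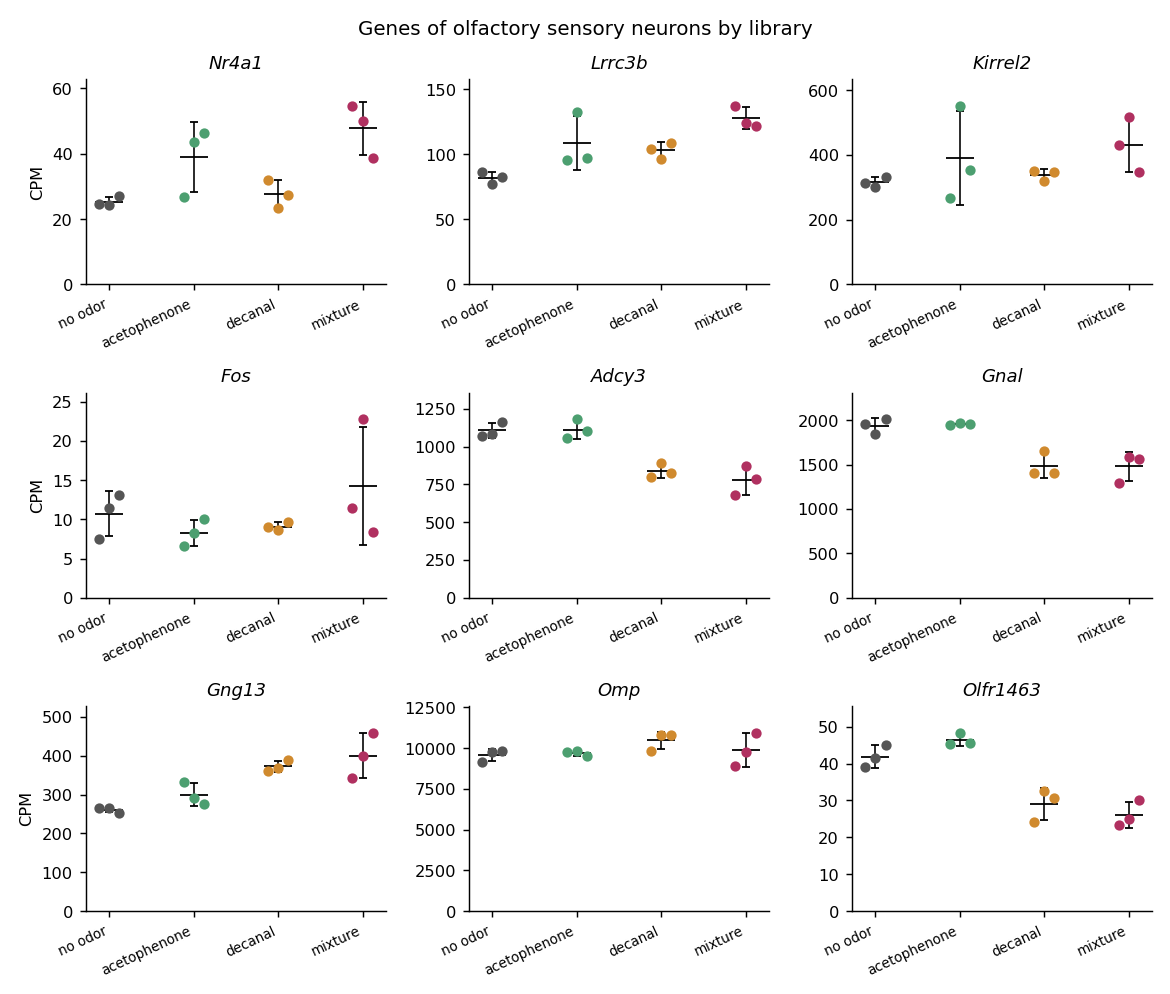
CPM of 9 genes in each of the 12 libraries of the table (points), with the mean and SD of each group of 3. The genes are of olfactory sensory neurons or, for Nr4a1 and Fos, of the immediate early list. Which cells of the tissue gave the Nr4a1 and Fos transcripts was not tested. Nr4a1 and Lrrc3b are higher in every mixture library than in any no-odor library, Adcy3, Gnal and Olfr1463 are lower, and Fos and Omp overlap.

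Of 18 genes of receptor choice and trafficking, 4 fell and 2 rose, where 11.6% and 10.6% of all genes did. Adcy3 and Rtp1, given above, belong to this list too. Ebf2, a transcription factor gene of the sensory lineage, measured 588 ± 11.1 CPM in the control and 443 ± 42.1 CPM in the mixture group (SD, n = 3) and fell (log2 fold change -0.41, SE 0.07, adjusted p = 0.000426). The histone demethylase gene Kdm1a, which acts while a receptor gene is being chosen, also fell (log2 fold change -0.28, SE 0.05, adjusted p = 0.000559). Atf5, whose product signals that a receptor is being made, measured 62.9, 71.9 and 75.1 CPM in the control libraries and 98.3, 89.2 and 102 CPM in the mixture libraries and rose without overlap (log2 fold change 0.46, SE 0.09, adjusted p = 0.00142). The 3 calls held without each of the 6 libraries.

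Of 12 genes of immature neurons, 4 were higher and 3 lower as counted, and 1 was higher and 3 lower in the length-adjusted fit. The growth cone genes Dpysl5, at 107 ± 7.25 and 72.8 ± 7.82 CPM, and Crmp1, at 132 ± 6.59 and 94.0 ± 3.77 CPM (control and mixture, SD, n = 3), fell (adjusted p = 0.000361 and 6.98e-05). The microtubule regulators Stmn1 (log2 fold change 0.36 with an adjusted p of 0.00232) and Stmn2 (0.32 with an adjusted p of 0.004) and the G protein subunit gene Gng8 (0.51 with an adjusted p of 0.00145) rose. Gap43, the standard marker of growing axons, rose by 0.24 (adjusted p = 0.0414), was called in 2 of the 6 leave-one-out fits and had a length-adjusted value of 0.08. Stmn2 was called in the length-adjusted fit as well (adjusted p = 0.00288), and Stmn1 (adjusted p = 0.236) and Gng8 (0.22, adjusted p = 0.0819) were not.

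Few olfactory receptor genes were called. Of 927 tested receptor symbols, 42 fell and 4 rose, where 11.6% and 10.6% of all genes did; 99 had an unadjusted p under 0.05, and 881 stayed uncalled. The tested receptors' median was -0.09. The summed share of counts of all 1106 listed receptors, tested or not, was 0.514% ± 0.0169 in the control and 0.460% ± 0.0504 in the mixture group (SD, n = 3, two-sided exact permutation p = 0.2, where 0.1 is the smallest this design allows). Many receptors had few counts. None of the 105 tested class I receptors passed, by edgeR's test, and of 805 class II receptors 40 fell and 4 rose.

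The receptor with the smallest p was Olfr1463, at 39.0, 41.5 and 45.1 CPM in the control libraries and 23.3, 24.9 and 30.1 CPM in the mixture libraries (log2 fold change -0.68, SE 0.11, adjusted p = 0.000367). Olfr1395 measured 27.0, 29.5 and 33.6 CPM in the control libraries and 15.2, 17.4 and 21.3 CPM in the mixture libraries (log2 fold change -0.74, SE 0.12, adjusted p = 0.000544). Olfr1258 measured 19.3, 20.3 and 22.3 CPM in the control libraries and 8.64, 12.1 and 14.5 CPM in the mixture libraries (log2 fold change -0.81, SE 0.15, adjusted p = 0.00143). For each of these 3 receptors the mixture libraries lay below all control libraries, and mixture replicate 1 was the lowest. Olfr60, Olfr527 and Olfr220 fell as well, by log2 values of 0.64, 0.60 and 0.55 (adjusted p = 0.00165, 0.00352 and 0.00301). These 6 kept their calls without each of the 6 libraries, as 14 receptors did in all.

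Mixture replicate 1 had the lowest receptor share, 0.402% of counts, beside 0.481% and 0.496% in the other mixture libraries and 0.495% to 0.527% in the control libraries. Without it 23 receptors were lower, and without control replicate 3 19 were. The 4 receptors that rose were Olfr1178 (7.48, 5.62 and 6.54 CPM in the control and 8.73, 8.53 and 9.42 CPM in the mixture libraries), Olfr1183, Olfr325 and Olfr832, with adjusted p values of 0.0209, 0.0216, 0.033 and 0.0463. None of the 4 kept its call without each library. Of 8 tested receptors listed from the literature as responding to acetophenone, and of 8 tested trace amine-associated receptors, edgeR called none against no odor. The length-adjusted fit called 1 of the trace amine-associated receptors lower. The TGACG core site was absent from the windows of the 36 fallen receptors with a promoter entry and present in 4.55% of all receptor windows.

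**Figure D4:**
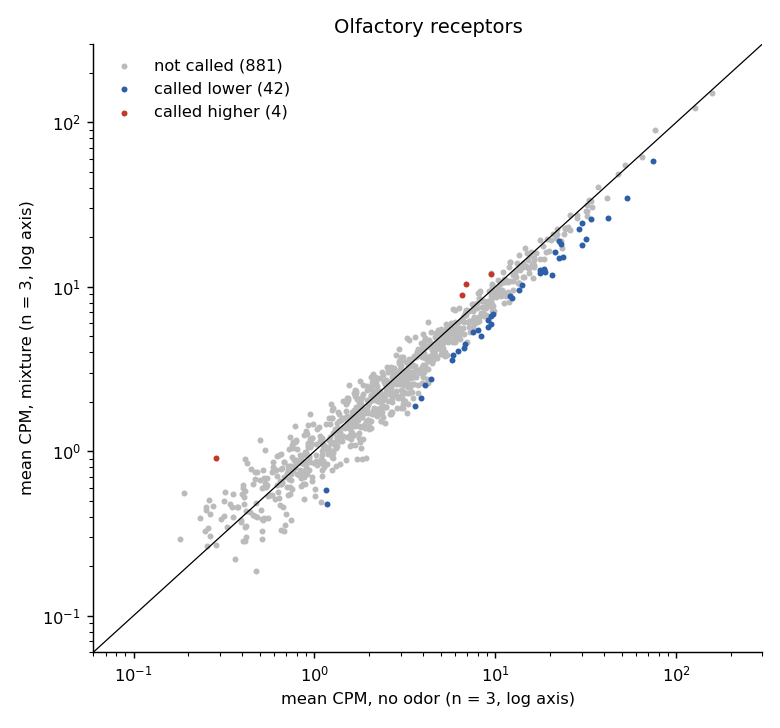
Mean CPM of 927 olfactory receptors in the mixture group against the no-odor group (3 libraries each, both axes logarithmic, line of equality in black), with the 42 called lower in blue and the 4 called higher in red. The fallen receptors lie below the line, mostly above 1 CPM.

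Transcripts of the mitochondrial genome rose almost without exception. Of 15 tested, 14 rose and none fell, with a median of 1.72 (1.47 length-adjusted). All 37 listed mitochondrial genes, tested or not, together took 0.260% ± 0.0237 of the control counts and 0.808% ± 0.0665 of the mixture counts (SD, n = 3, exact permutation p = 0.1, the smallest possible). mt-Nd1, which belongs to complex I of the respiratory chain, measured 227, 192 and 222 CPM in the control libraries and 676, 649 and 775 CPM in the mixture libraries (log2 fold change 1.71, SE 0.08, adjusted p = 8.14e-09). mt-Co1, a subunit of complex IV, measured 497, 464 and 567 CPM in the control libraries and 1519, 1402 and 1708 CPM in the mixture libraries (log2 fold change 1.60, SE 0.09, adjusted p = 3.52e-08). The mixture libraries were about 3-fold above the control libraries for both, without overlap.

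The ribosomal RNA mt-Rnr2 (log2 fold change 1.73 with an adjusted p of 1.87e-07), the ATP synthase subunit mt-Atp6 (1.93 with an adjusted p of 3.52e-07) and the complex I subunit mt-Nd3 (2.28 with an adjusted p of 4.38e-07) rose likewise, and mt-Nd4l, with few counts, was not called (adjusted p = 0.494). In the no-odor group of the study's other table, counted separately, mitochondrial transcripts took 0.794% ± 0.174 of counts (SD, n = 3), beside 0.260% in the AD control group and 0.808% in the mixture group. A further 6 tested nuclear genes carry copies of mitochondrial transcripts, with over 50% of their 25-base words in one of them. Of these 5 were called higher, such as Gm28437, at 240.2 ± 33.2 and 760.2 ± 84.9 CPM, so the split of reads between the mitochondrial genes and their copies is uncertain.

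Cytosolic ribosomal protein genes moved together as well. Of 83 tested, 80 rose and none fell, with a median of 0.56, and all 80 calls held without each of the 6 libraries. Rpl35, of the large subunit, measured 60.03, 57.9 and 55.3 CPM in the control libraries and 100.3, 94.6 and 104 CPM in the mixture libraries (log2 fold change 0.79, SE 0.05, adjusted p = 4.38e-07). Rps19, of the small subunit, measured 91.0, 89.3 and 91.7 CPM in the control libraries and 142, 132 and 145 CPM in the mixture libraries (log2 fold change 0.62, SE 0.05, adjusted p = 1.05e-06). The 3 libraries of each group lay close together and far from the other group for both genes. The exceptions were Rps3a2, Rps4l and Rpl7l1, with adjusted p values of 0.0837, 0.238 and 0.388. These transcripts are short, with a median length of 1094 bases, and the length-adjusted fit called 71 of the 83 higher, with a median of 0.30.

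Of 84 nuclear genes of the respiratory chain and ATP synthase, 62 rose and 2 fell, with a median of 0.43. This count depended on length: with the adjustment 33 were higher and 5 lower, with a median of 0.12. The ATP synthase subunit gene Atp5l measured 77.1 ± 1.02 CPM in the control and 124 ± 12.96 CPM in the mixture group (log2 fold change 0.68, SE 0.06, adjusted p = 4.4e-06) and kept a length-adjusted value of 0.73. Sdha, the flavoprotein of complex II, fell (log2 fold change -0.15, SE 0.05, adjusted p = 0.0383). Of 78 mitochondrial ribosomal protein genes, 50 rose and 1 fell, and 27 and 1 did with the adjustment. Mrpl33 (log2 fold change 0.61 with an adjusted p of 2.15e-05) was among those that rose in both fits.

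**Figure D5:**
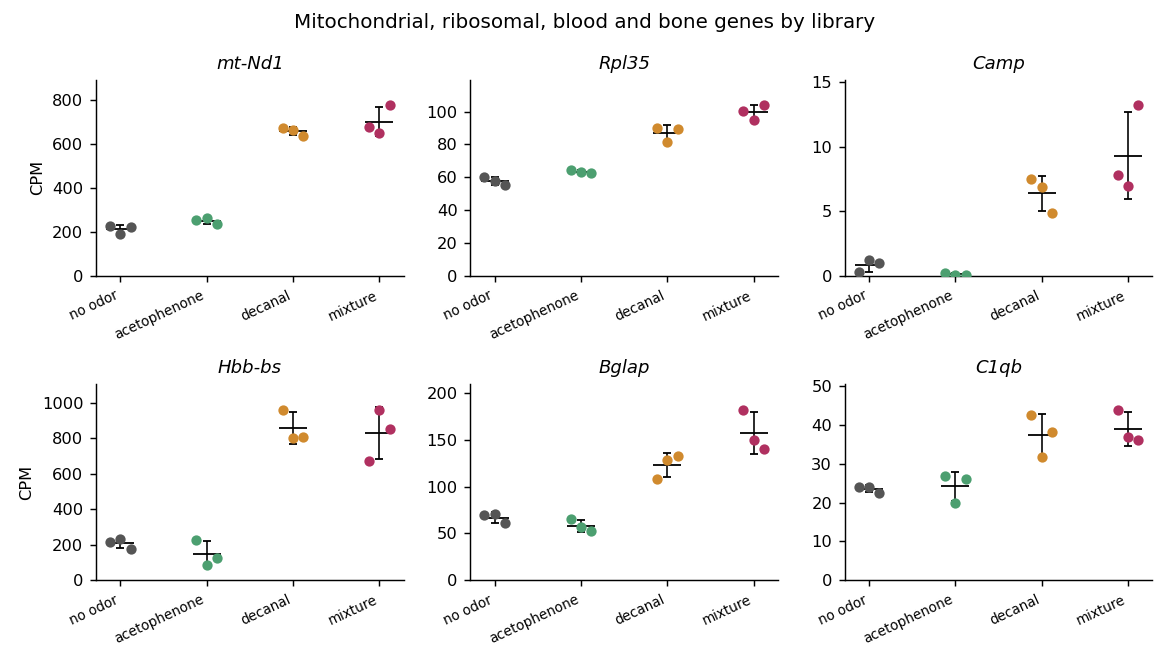
CPM of 6 genes of mitochondria, ribosomes, neutrophils, red cells, bone and macrophages in each of the 12 libraries of the table (points), with the mean and SD of each group of 3. Every mixture library lies above every no-odor library for all 6 genes, and the decanal libraries lie beside the mixture libraries.

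Among called genes with a mean count of at least 20 over the 6 libraries and no overlap between the groups, most of the 12 largest rises were genes of blood and marrow cells. Of 15 genes of neutrophil granules and their marrow precursors, 13 rose and none fell, with a median of 2.62 (2.41 length-adjusted). Camp, the cathelicidin of neutrophil granules, measured 0.276, 1.24 and 0.959 CPM in the control libraries and 7.78, 6.94 and 13.2 CPM in the mixture libraries (log2 fold change 3.50, SE 0.39, adjusted p = 2.1e-05). Elane, neutrophil elastase, measured 0.748, 1.72 and 1.79 CPM in the control libraries and 12.9, 10.7 and 12.7 CPM in the mixture libraries (log2 fold change 3.10, SE 0.38, adjusted p = 4.76e-05). S100a9, a subunit of calprotectin, measured 7.21, 11.8 and 10.8 CPM in the control libraries and 51.5, 44.1 and 51.2 CPM in the mixture libraries (log2 fold change 2.31, SE 0.22, adjusted p = 7.3e-06). The mixture libraries were several-fold higher for all 3, without overlap, and no library was at 0.

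The granule genes Ngp (3.01), Mpo (2.80), Retnlg (3.09), Chil3 (2.99), Ctsg (2.76) and Fcnb (2.62), the granulocyte precursor gene Ms4a3 (2.91) and the eosinophil gene Prg2 (3.08) were among the 12 largest rises, in log2 fold change, and so were Cldn13 (2.59), which is expressed in red cell precursors, and Gvin1 (2.90). Gvin1 was called in only 1 of the 6 leave-one-out fits. Ltf, lactoferrin, which is also made by nasal glands, measured 169, 129 and 580.0 CPM in the control libraries and 263, 155 and 227 CPM in the mixture libraries and was not called (adjusted p = 0.513); control replicate 3 was the highest, and without it the log2 fold change was 0.53. Lcn2 was the other uncalled member (adjusted p = 0.0578).

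Of 12 red cell genes, 10 rose and none fell, with a median of 1.70, and their share of counts was 0.103% ± 0.00874 in the control and 0.271% ± 0.0377 in the mixture group (SD, n = 3). The beta globin gene Hbb-bs measured 216, 230.4 and 175 CPM in the control libraries and 671, 961 and 849.9 CPM in the mixture libraries (log2 fold change 2.00, SE 0.25, adjusted p = 6.17e-05). Alas2, the first enzyme of haem synthesis in red cell precursors, rose (log2 fold change 1.25, SE 0.19, adjusted p = 0.00023). The tissue had been perfused per the labels, and the globins were still among its detected genes in all 6 libraries.

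Of 14 macrophage genes, 7 rose and none fell. The complement genes C1qa, C1qb and C1qc rose together, with C1qb at 24.1, 24.04 and 22.6 CPM in the control and 44.0, 36.8 and 36.2 CPM in the mixture libraries (log2 fold change 0.73, SE 0.12, adjusted p = 0.000465), and Aif1, a cytoskeletal gene of macrophages, rose too (0.86, adjusted p = 0.001). Csf1r and Adgre1, surface receptors that define macrophages, were not called as counted (adjusted p = 0.165 and 0.318). The length-adjusted fit called Csf1r higher (0.32, adjusted p = 0.0218) but not Adgre1 (adjusted p = 0.252), and 7 of the 14 in all. Of 11 lymphocyte genes 4 rose, and 2 in the length-adjusted fit, among them the B cell receptor gene Cd79a (log2 fold change 2.26, SE 0.53, adjusted p = 0.00655), while the T cell gene Cd3e overlapped (adjusted p = 0.316).

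Of 16 bone cell genes, 13 rose and none fell, with a median of 0.82, and 14 were called higher in the length-adjusted fit. Bglap, osteocalcin of osteoblasts, measured 69.9, 70.2 and 60.6 CPM in the control libraries and 183, 150.1 and 140.2 CPM in the mixture libraries (log2 fold change 1.24, SE 0.10, adjusted p = 2.87e-06). Col1a2, a chain of type I collagen, measured 651, 621 and 529.7 CPM in the control libraries and 1447, 1290 and 885 CPM in the mixture libraries (log2 fold change 1.01, SE 0.15, adjusted p = 0.000182). Osteoclast genes rose too: Ctsk, at 45.7 ± 3.56 and 84.3 ± 17.6 CPM (log2 fold change 0.88, SE 0.13, adjusted p = 0.000222), and Acp5, at 31.9 ± 2.68 and 63.3 ± 12.6 CPM (control and mixture, SD, n = 3; log2 fold change 0.99, SE 0.12, adjusted p = 3.71e-05). Ibsp, bone sialoprotein, rose (0.85, adjusted p = 7.64e-05), and Dmp1 of osteocytes narrowly missed the call (adjusted p = 0.0576). Mixture replicate 3 was the lowest of its group for Bglap, Col1a2, Ctsk and Acp5, and still lay above every control library.

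The share of bone genes was 0.242% to 0.279% of counts in the control libraries and 0.366% to 0.554% in the mixture libraries. Beside these, the neutrophil genes took 0.0187% to 0.0629% of control and 0.0345% to 0.0506% of mixture counts, a sum that Ltf dominates. The part of blood, marrow or bone RNA in the other differences was not tested.

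Among the epithelium's other cell types, more sustentacular genes fell than rose. Of 26 tested, 9 fell and 2 rose, with a median of -0.13, and 13 and 1 did in the length-adjusted fit. Cyp2f2, a cytochrome P450 that oxidises inhaled compounds, measured 3205, 3458 and 3459 CPM in the control libraries and 2664, 2361 and 2631 CPM in the mixture libraries (log2 fold change -0.40, SE 0.05, adjusted p = 5.64e-05). Cyp1a2, another such enzyme, measured 845, 914 and 875 CPM in the control libraries and 742, 616 and 629.7 CPM in the mixture libraries (log2 fold change -0.41, SE 0.07, adjusted p = 0.000515). Por, the reductase that supplies these enzymes with electrons, fell by a log2 value of 0.40 (adjusted p = 9.07e-05). The mixture libraries lay below all control libraries for the 3 genes, and each call held without any 1 library.

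Microvillar and ionocyte genes included 4 that rose and 1 that fell, of 14, and 3 and 1 did in the length-adjusted fit. Coch measured 149.5, 141 and 125 CPM in the control libraries and 193, 207 and 212 CPM in the mixture libraries (log2 fold change 0.56, SE 0.07, adjusted p = 5e-05), and Hepacam2 rose as well (0.60, adjusted p = 0.00252), without overlap in either gene. Ascl3, a transcription factor of these cells, rose as counted (adjusted p = 0.0039) with a length-adjusted value of 0.06, and Trpm5, the channel of tuft-like cells, was not called (adjusted p = 0.646). The secreted mucin gene Muc2 measured 75.0, 67.4 and 74.9 CPM in the control libraries and 107, 111 and 109 CPM in the mixture libraries and rose (log2 fold change 0.59, SE 0.06, adjusted p = 5.93e-06).

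Several gland genes varied widely between mice of 1 group. Of 23 tested, 3 rose and 1 fell, where 10.6% and 11.6% of all genes did, and in the length-adjusted fit 1 rose and 1 fell. Scgb1c1, a secretoglobin, measured 3060.4 ± 172 CPM in the control and 4409 ± 136 CPM in the mixture group (SD, n = 3; log2 fold change 0.53, SE 0.05, adjusted p = 5.4e-06), with a length-adjusted value of 0.04. Sox9, a transcription factor of gland cells, was the member that fell (adjusted p = 0.0037). The secretory gene Bpifb9b measured 1572, 0.901 and 297 CPM in the control libraries and 2630, 12108 and 859 CPM in the mixture libraries, and was not called (adjusted p = 0.238).

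Of 15 ensheathing and Schwann cell genes 3 fell, and 2 in the length-adjusted fit, among them the growth factor receptor gene Erbb3 (log2 fold change -0.33, SE 0.07, adjusted p = 0.00307) and the transcription factor gene Sox10 (log2 fold change -0.28, SE 0.08, adjusted p = 0.0167). Of 15 genes of motile cilia 3 fell: Ccdc40, which sets the spacing of the axoneme, measured 219, 218 and 210.1 CPM in the control libraries and 130.4, 150.4 and 152 CPM in the mixture libraries (log2 fold change -0.58, SE 0.06, adjusted p = 1.79e-05), its partner Ccdc39 fell by 0.36 (adjusted p = 0.00755), and the master regulator Foxj1 by 0.21 (adjusted p = 0.0255; not called length-adjusted, adjusted p = 0.083). The other motile cilia genes were not called, and 8 of the 15 lay above 0, with a median of 0.04 (-0.13 length-adjusted). Horizontal basal cells showed 3 falls in 9 genes, and 1 in the length-adjusted fit, including the laminin chain gene Lamb3 (log2 fold change -0.66, SE 0.08, adjusted p = 3.55e-05), while their keratins Krt5 and Krt14 were not called (adjusted p = 0.248 and 0.0798). Of 14 genes of globose basal and dividing cells 3 rose, the thymidylate synthase gene Tyms (0.42, adjusted p = 0.00139), Hmgb2 (0.44, adjusted p = 0.000146) and Mki67 (0.49, adjusted p = 0.028). Over all genes tested 11.6% fell and 10.6% rose.

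Of 18 aldehyde dehydrogenase genes, 9 fell and none rose, with a median of -0.20, and 4 fell in the length-adjusted fit. Aldh3a2, which oxidises long-chain aliphatic aldehydes, measured 136, 134 and 133 CPM in the control libraries and 100.3, 105 and 101 CPM in the mixture libraries (log2 fold change -0.39, SE 0.05, adjusted p = 7.73e-05). Aldh6a1, of valine breakdown, measured 179, 172 and 175 CPM in the control libraries and 129, 119 and 126 CPM in the mixture libraries (log2 fold change -0.49, SE 0.06, adjusted p = 2.85e-05). The control libraries agreed closely and stood above every mixture library for both.

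Of 14 targets of NRF2, the regulator of the response to electrophiles, 6 fell and none rose, with Txnrd1, thioredoxin reductase, at 439, 452 and 444 CPM in the control and 335, 366 and 343 CPM in the mixture libraries (log2 fold change -0.35, SE 0.05, adjusted p = 0.000302). G6pdx, the entry enzyme of the pentose phosphate pathway, fell by 0.42 (adjusted p = 0.000145). Of 15 lipid synthesis genes 7 fell and none rose, and 4 fell in the length-adjusted fit: Acly, which supplies cytosolic acetyl-CoA, measured 179, 179 and 183 CPM in the control libraries and 122, 131 and 125 CPM in the mixture libraries (log2 fold change -0.52, SE 0.05, adjusted p = 7.24e-06), and the desaturase gene Scd1 and the regulator Srebf1 fell by 0.39 and 0.36 (adjusted p = 0.00598 and 0.00277).

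Of 16 circadian clock genes 6 fell and none rose, where 11.6% and 10.6% of all genes did. In the length-adjusted fit 4 fell and 1 rose. The list did not fall as a whole: 8 of the 16 lay above 0, and the median was 0.02 (0.04 length-adjusted). Nr1d1, the repressor REV-ERBα, measured 106, 107 and 115 CPM in the control libraries and 79.9, 71.7 and 69.5 CPM in the mixture libraries (log2 fold change -0.57, SE 0.06, adjusted p = 1.87e-05). Npas2 and Arntl, which form an activating dimer of the clock, fell by 0.55 and 0.41 (adjusted p = 0.00153 and 0.00212), and Bhlhe40, a repressor, by 0.32 (adjusted p = 0.000999). The times of day at which the mice were killed are not given in the sources used here, and the part of the clock in the difference was not tested.

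Of 14 heat shock genes 4 fell and 1 rose, with the chaperone genes Hspa4l (log2 fold change -0.51 with an adjusted p of 6.79e-05) and Hspa8 (-0.35 with an adjusted p of 0.0164) lower and the mitochondrial cochaperone Hspe1 (0.42 with an adjusted p of 0.000256) higher. In the length-adjusted fit 3 fell and none rose, with Hspe1 at 0.15 (adjusted p = 0.0787). Of 15 unfolded protein response genes 4 rose, among them Atf4 (0.28, adjusted p = 0.00126), Manf (0.38, adjusted p = 0.000465) and Xbp1 (0.29, adjusted p = 0.0135), and 1 fell, beside 3 and 2 in the length-adjusted fit. The metallothionein genes Mt1 and Mt2, which bind zinc and respond to glucocorticoids, rose by 0.46 and 0.62 (adjusted p = 8.74e-05 and 1.43e-05). Their transcripts are short, and length-adjusted Mt1 rose by 0.23 (adjusted p = 0.00635) while Mt2, at 0.16, was not called (adjusted p = 0.055). Of 18 interferon-stimulated genes 2 rose and 1 fell, where 10.6% and 11.6% of all genes did, and 1 and 1 did length-adjusted. Of the 18, 17 lay above 0, with a median of 0.34 (0.24 length-adjusted). The antiviral gene Rsad2 measured 3.78, 3.31 and 3.88 CPM in the control libraries and 7.04, 8.24 and 6.99 CPM in the mixture libraries and rose (log2 fold change 1.02, SE 0.20, adjusted p = 0.002). Ifit2, the only member below 0, fell by 0.40 (adjusted p = 0.00502).

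The falls were smaller but many were precise. The 10 genes with the smallest p among those lower, named after their values were seen, were Pcx, Vps35l, Ap1b1, Copg1, Elmo2, Ift122, Nckap1, Syn1, Copb1 and Cog1, with log2 fold changes from -0.76 to -0.58. Of these, Copg1 and Copb1 are subunits of the COPI coat, Cog1 of a Golgi tether, Ap1b1 of a clathrin adaptor and Vps35l of an endosomal complex. Copg1 measured 224, 229 and 228 CPM in the control libraries and 151, 147 and 138 CPM in the mixture libraries (log2 fold change -0.65, SE 0.05, adjusted p = 1.36e-06). Syn1, synapsin of presynaptic vesicles, measured 77.4, 74.4 and 81.0 CPM in the control libraries and 41.8, 47.5 and 48.0 CPM in the mixture libraries (log2 fold change -0.76, SE 0.06, adjusted p = 2.27e-06). Pcx, pyruvate carboxylase, measured 85.4, 91.4 and 89.1 CPM in the control libraries and 56.2, 52.5 and 50.3 CPM in the mixture libraries (log2 fold change -0.74, SE 0.05, adjusted p = 8.83e-07). The groups were far apart and tight for these 3 genes, and their length-adjusted values were -0.56, -0.66 and -0.61.

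By size, among called genes with a mean count of at least 20 and no overlap between the groups, the largest falls were those of Npcd, at 4.57, 4.81 and 4.38 CPM in the control libraries and 0.521, 0.675 and 1.65 CPM in the mixture libraries (log2 fold change -2.26, SE 0.35, adjusted p = 0.00034), of Gpr39, a zinc-sensing receptor (-2.08), and of Ankrd34a (-1.40). Nefh, the heavy neurofilament chain, measured 4.25, 4.51 and 3.58 CPM in the control and 2.08, 2.02 and 1.74 CPM in the mixture libraries (log2 fold change -1.08, SE 0.22, adjusted p = 0.00259), and the transcription factor gene Tox2 fell to a like degree (-1.01). Npcd, Nefh and Tox2 kept their calls without each of the 6 libraries, and Gpr39 and Ankrd34a were called in 1 and 2 of the 6 leave-one-out fits.

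Set directly against decanal alone, the mixture gave no called gene in edgeR's test (0%, smallest adjusted p 0.123), 1090 genes at an unadjusted p under 0.05 and 2 called genes in DESeq2's Wald test. The smallest p belonged to Heg1, a receptor gene of endothelial cells, with 34.6, 32.5 and 28.9 CPM after decanal and 47.3, 49.2 and 41.1 CPM after the mixture (log2 fold change 0.52, SE 0.08). Nr4a1 measured 32.1, 23.5 and 27.3 CPM after decanal alone, below every mixture library, and 26.7, 43.5 and 46.5 CPM after acetophenone alone. Its difference between mixture and decanal was 0.79 with an SE of 0.17 (adjusted p = 0.76), and between mixture and acetophenone 0.30 with an SE of 0.17 (adjusted p = 0.225).

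Against acetophenone alone 2259 genes were higher in the mixture (11.6%) and 2688 lower (13.8%), 25.3% in all. In that comparison 2 of the 8 receptors listed for acetophenone were higher and none lower, and over all 927 tested receptors 33 were higher and 74 lower. mt-Nd1 measured 252, 264 and 234 CPM after acetophenone and 672, 665 and 636 CPM after decanal, and differed from the mixture by 1.48 (adjusted p = 3.92e-08) in the first case and 0.09 (adjusted p = 0.931) in the second. Adcy3 measured 1055, 1181 and 1105 CPM after acetophenone and 801, 890.5 and 826 CPM after decanal, and the differences were -0.52 (adjusted p = 0.000165) and -0.11 (adjusted p = 0.922). Lrrc3b measured 95.9, 133 and 97.0 CPM after acetophenone and 104, 96.0 and 109 CPM after decanal, and neither difference was called (adjusted p = 0.0974 and 0.887). The mixture carried the same total volume as each single odorant, so the amount of each component in it was lower than in the single exposures.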

How the data were processed

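RNA sequencing counts of mouse olfactory epithelium were used as deposited, in 1 table of 12 libraries. Its values are expected counts per Ensembl gene, made by the authors from their reads, and 12.8% of them were not whole and were rounded. Per the submitters' processing notes STAR 2.7.10b, Salmon 1.10.1 and R 4.4.2 were used with the build GRCm39; the role of each and the annotation release are not given in the sources used here. Of 57010 gene IDs, 52029 were given symbols from GENCODE M21 (GRCm38), so only the RefSeq promoter windows (GRCm38.p6) are given coordinates; transcript length and GC came from its longest transcript per gene.

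In R 4.3.3, edgeR 4.0.16 fitted all 12 libraries in 4 groups, with filterByExpr, TMM scaling and no replicate block. P-values are two-sided and adjusted by Benjamini-Hochberg over 19525 genes. The SE was taken as |log2 fold change| over the root of F. Scripts were tested on simulated data. DESeq2 1.42.0, other filters, length and GC offsets and each left-out library were alternatives. Counts varied between replicates by more than sampling noise.

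The comparison, gene lists and the rule for naming genes were chosen with earlier results of these data known. The rule took the 12 largest rises and falls (called, a mean count of at least 20, no overlap between groups, no predicted gene), list members (for lists over 16 genes the 5 smallest p in each direction), the 6 receptors with the smallest p in each direction and 17 genes always given. Of 165 genes named, 19 fell outside it and were named after their values were seen: Rps3a2, Rps4l, Rpl7l1, Gm28437, Bpifb9b, Pf4, Ppbp, Adipoq, Acta1 and the 10 falls with the smallest p. Promoter windows are from RefSeq; TGACG and TGACGTCA are reported, and of the other motifs searched on both strands ACTTCCGG, CTTTTCC, AAGATGGCG and the EBF motif were in 2.88%, 6.93%, 0.606% and 0.779% of all windows and in 1, 2, 0 and 0 immediate early windows.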

Additional observations from a re-analysis of the deposited data

How the results depend on the processing

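Length and GC offsets turned the balance of calls for axon sorting (5 higher and 1 lower, against 1 and 2) and immature neuron genes (1 and 3, against 4 and 3), and the median of gland genes (0.0048 to -0.14) and motile cilia genes (0.041 to -0.13). A robust fit, DESeq2's Wald test, its size factors in edgeR, no filter on low counts, a minimum of 1 CPM in 3 libraries, a fit of only the 6 libraries, and length and GC offsets called between 1567 and 2116 genes higher and between 1677 and 2606 lower, against 2078 and 2269. Without 1 library at a time 1415 to 1770 genes were higher and 1672 to 2437 lower. The share of calls that were higher ran from 42.1% to 48.3%. Against decanal, where the main count was 0, no low-count filter called 132 genes, DESeq2's Wald test 2, the robust fit 1 and length and GC offsets 1, with or without the replicate block, and leaving out 1 library gave 0 to 1. The 42 fallen receptors became 75 without a low-count filter and 19 to 58 without 1 library, the lowest without control replicate 3. The cause was not tested. Without 1 library, log2 fold changes ran from -0.12 to 0.66 for Fos and from -0.099 to 0.36 for Egr1 (lowest without mixture replicate 2), from -0.050 to 0.10 for Omp (lowest without mixture replicate 3) and from -0.80 to 0.53 for Ltf (highest without control replicate 3), none of them called. Length and GC offsets turned S100a5 to -0.091, and to -0.090 with the replicate block. Of 140 called genes named, 121 stayed called with these offsets, 135 in DESeq2's test (of 139 with an adjusted p there) and 119 without control replicate 3.

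The groups share replicate numbers, which the labels do not tie to a shared litter or day. Deviations of same-numbered libraries correlated over 16633 genes with r = -0.20, 0.03 and 0.37, and not every library correlated best with its own number. With 3 libraries per group these values cannot show whether the mice were paired. With the replicate block 1988 genes were higher and 2252 lower, 14 mitochondrial, 80 ribosomal protein and 14 neutrophil genes were higher, and 12 transduction genes and 42 receptors lower. Fosb, Npas4 and mt-Nd4l had few counts; whether depth limited the number of receptor calls was not tested.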

Other observations

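Other gene groups gave further values. Of 42 collagen genes 8 rose and 2 fell, with the fibrillar collagen gene Col5a1 at 21.2, 15.4 and 17.4 CPM in the control and 43.4, 37.2 and 24.9 CPM in the mixture libraries (log2 fold change 0.97, SE 0.16, adjusted p = 0.000535) and Col18a1, of basement membranes, lower (-0.40, adjusted p = 0.0455); in the length-adjusted fit 9 rose and none fell. The platelet genes Pf4 and Ppbp, named after their values were seen, rose by 1.88 and 1.92 (adjusted p = 0.000101 and 0.00122), and Adipoq, the adiponectin gene of fat cells, by 1.73 (adjusted p = 0.0059). Acta1, skeletal muscle actin, measured 15.05, 1.33 and 1.08 CPM in the control libraries and 1.22, 0.434 and 0.824 CPM in the mixture libraries, so that control replicate 1 alone stood high, and was called lower with the groups overlapping (adjusted p = 0.0181, 3 of the 6 leave-one-out fits).

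Of 55 clustered protocadherin genes 6 fell and none rose, among them Pcdhgc3 (-0.39, adjusted p = 0.009) and Pcdhb1 (-0.53, adjusted p = 0.0154), and their median was -0.21. Over all genes 11.6% fell and 10.6% rose. In the length-adjusted fit 1 protocadherin gene fell and 1 rose, and 1 of the 6 falls held without each of the 6 libraries. Of 18 genes of axon sorting 1 rose and 2 fell, with the ephrin receptor gene Epha5 lower (-0.38, adjusted p = 0.0228). The balance turned in the length-adjusted fit, with 5 higher and 1 lower, and none of the 3 calls held without each of the 6 libraries. Of 12 genes of neurofilaments and other neurons 1 rose and 1, Nefh, fell. Only 1 of the 12 lay above 0, and the median was -0.38 (-0.28 length-adjusted). Of 13 glucocorticoid-responsive genes 3 rose, 2 of them metallothionein genes, and 1 fell, the kinase gene Pdk4, at 12.9, 13.8 and 14.0 CPM in the control and 10.0, 8.92 and 8.81 CPM in the mixture libraries (log2 fold change -0.55, SE 0.13, adjusted p = 0.00629); length-adjusted, 1 rose and 1 fell. Of 5 vomeronasal genes 1 rose and 1 fell, as did 1 each of 8 genes of necklace neurons, and the length-adjusted fit called no gene of either list. Among the necklace genes Car2, a carbonic anhydrase, was not called (adjusted p = 0.0615).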
